A study of Rattus norvegicus with 4 samples.

Results

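Newly formed oligodendrocytes are the short-lived stage between dividing precursors and myelinating cells. Among 43903 nuclei of rat orbitofrontal cortex, 234 nuclei taken to be of this stage were described. They were chosen by their counts of 3 genes. A nucleus needed at least 1 unique molecular identifier (UMI, 1 captured transcript) of Enpp6 and at least 6 UMIs of Bcas1, Enpp6 and Tns3 together. It also needed at least 500 genes, at most 5% mitochondrial UMIs, and at most 2 UMIs of the neuronal genes Slc17a7, Camk2a, Gad1 and Gad2 together. METH libraries 1 and 2 held 68 and 68 of these nuclei, against 54 and 44 in saline libraries 1 and 2. The name newly formed follows this rule and may not hold for every nucleus. Of the 234, 86 had 6 or more UMIs of the mature genes Mog, Mobp and Mag together, and 45 of these 86 rested on 1 Enpp6 UMI.

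The animals were wild-type male Sprague-Dawley rats aged 8 weeks. The METH group had received METH (methamphetamine, which makes neurons release dopamine and related transmitters) at 1 mg/kg into the peritoneum for 7 days, and the saline group had received saline for 7 days. Tissue of 4 animals per group entered 2 single-nucleus libraries per group. The sources used here do not say how the animals were divided over the libraries. P-values therefore weigh the spread between libraries alone, some of which may be technical.

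Oligodendrocyte precursors carry the growth factor receptor Pdgfra and proteoglycans such as Cspg4 and Vcan, and remain able to divide. On leaving the cell cycle they lose these genes, extend a branched web of processes, and pass through a brief stage marked by Enpp6, a choline phosphodiesterase, and Bcas1, a protein of early myelinating cells. They then switch on the proteins of compact myelin and its outer surface, among them Mbp, Mog, Mobp and Mag, or they die.

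The files held 46633 barcodes, of which 9774 and 8565 were kept in METH libraries 1 and 2, against 17393 and 8171 in saline libraries 1 and 2. Saline library 1 stood apart, with the most nuclei and the lowest depth: medians were 3120.5 and 3016 UMIs per nucleus in METH, against 1969 in saline library 1 and 3741 in saline library 2. Among the chosen nuclei the medians were 2302.5 and 2464 UMIs in METH, against 1178 and 2642.5 in saline. Their summed UMIs came to 206568 and 226882 in METH, against 82830 and 157594 in saline. Of the chosen nuclei, 4 carried a barcode sequence that another library also held.

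Newly formed nuclei were set beside 1005 precursors and 2323 mature oligodendrocytes, chosen in the same way. A nucleus that met the rule for newly formed nuclei could enter neither set, which limits Enpp6 in both. Precursors had at least 1 UMI of Pdgfra and 6 of Pdgfra, Cspg4 and Vcan together, with at most 2 of Mog, Mobp and Mag. Mature nuclei had at least 1 UMI of Mog and 6 of Mog, Mobp and Mag, with at most 2 of the precursor genes. Levels are UMIs of a gene scaled to the summed UMIs of the nuclei, as CPM, and each gene is compared only with itself across sets. Because the sets were chosen from these same nuclei, levels across sets are given as a description with no test.

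The genes of the rule stood as follows. A chosen nucleus had a median of 10 Bcas1 UMIs, 2 Enpp6 UMIs and 4 Tns3 UMIs, with highest values of 63, 18 and 25. Enpp6 averaged 1221 CPM in newly formed nuclei, against 2.7 CPM in precursors, 43.6 CPM in mature nuclei and 7.1 CPM in excitatory neurons, where it counts as background. Just inside the rule were 18 nuclei with a sum of exactly 6, with a median of 12.5 Mog, Mobp and Mag UMIs, and 82 nuclei with 1 Enpp6 UMI. Just outside were 51 nuclei with a sum of 5 and 2 nuclei with a neuronal sum of 3. A further 865 nuclei reached a sum of 6 or more with no Enpp6 UMI.

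The label was set beside a list of genes known from newly formed oligodendrocytes. That list was chosen with earlier results of these data known, so it is no independent check. The files hold 17 of its genes, all outside the rule. Of the 14 that reached 20 CPM in a set, 13 were above both precursors and mature nuclei in all 4 libraries, Lims2 being the exception. Of all 7793 genes at that level, leaving out those the rules used, 611 (7.84%) were above both in all 4 libraries. Tcf7l2, a transcription factor that acts in the switch to myelination, measured 1060 and 846 CPM in METH, against 1582 and 844 CPM in saline. Its mean was 1083 CPM in newly formed nuclei, against 102 CPM in precursors and 75.5 CPM in mature nuclei. Casr, the calcium-sensing receptor, measured 116 and 83.7 CPM in METH, against 84.5 and 69.8 CPM in saline. It had 61 UMIs in newly formed nuclei, against 0 in precursors and 1 in mature nuclei.

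Of 22 genes that shape the cytoskeleton and the growing processes, 12 were above both other sets in all 4 libraries, 4 lay between them and 6 were mixed. Fyn, a kinase that drives process outgrowth, averaged 1944 CPM, against 554 CPM in precursors and 124 CPM in mature nuclei. Nfasc, an adhesion protein of the axon contact, averaged 2763 CPM, against 163 and 676 CPM in these sets. Sirt2, a tubulin deacetylase, averaged 756 CPM, against 61.7 and 159 CPM. Map1b, a microtubule protein, averaged 575 CPM, against 110 and 238 CPM.

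Ranked by the ratio of their mean to the higher of the other means, with 10 CPM added, the 15 leading genes outside the rule were Rin3, Rasgef1b, Cemip2, Kif19, Tcf7l2, Casr, Dock6, Pdcd4, Pcdh17, Mroh2a, Kank2, Flvcr2, Cdyl, Epb41l2 and Vamp1. Rin3, a regulator of the small GTPase Rab5, led with a ratio of 15.7 and a mean of 342 CPM, against 4.6 CPM in precursors and 12.4 CPM in mature nuclei. Kif19, a kinesin, averaged 132 CPM, against 0.33 and 4.3 CPM. Cemip2, a hyaluronan-binding surface protein, averaged 497 CPM, with a ratio of 10.7. Pcdh17, a protocadherin, averaged 2392 CPM, against 358 and 93.9 CPM.

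Other genes dipped at this stage. The 8 with the deepest troughs, below both other sets in all 4 libraries, were Itgb8, Eda, Olig1, Kif13a, Aff2, Grb14, Rbfox1 and Lrrtm3. Itgb8, an integrin subunit that activates TGF-beta, averaged 80.8 CPM, against 318 CPM in precursors and 236 CPM in mature nuclei. Olig1, a transcription factor of the lineage, rested on 12 UMIs in the chosen nuclei and averaged 15.0 CPM, against 69.5 and 51.8 CPM. Summed over nuclei, mitochondrially encoded transcripts were also low. Of the 11 at 20 CPM or more, 8 were below both other sets in all 4 libraries, against 3.64% of all genes at that level. Their sum was lower still in excitatory neurons, at 369 to 578 CPM by library, against 761 to 1297 CPM here. By nucleus, the median mitochondrial percent in METH library 2 was 0.099 in newly formed nuclei, against 0.072 in precursors. In the other libraries it was below both other sets. The part of depth was not tested.

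Between the 2 ends of the lineage, most genes lay between them or moved by library. Of 376 genes at least 2-fold higher in mature nuclei than in precursors in all 4 libraries, 195 (51.9%) lay between in all 4, 21 lay above both and 0 below both. Of 576 genes at least 2-fold higher in precursors, 233 (40.5%) lay between, 28 above both and 8 below both. On a log2 scale where 0 is the precursor level and 1 the mature level, with 10 CPM added, the genes higher in mature nuclei stood at a median position of 0.63 ± 0.14 (SD, n = 4 libraries). The genes higher in precursors stood at 0.69 ± 0.07.

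These averages joined nuclei of different kinds. For each nucleus a mature share was taken, the UMIs of 27 mature genes over those of the mature and 16 precursor genes, without any gene that chose a set. Its median was 46.3% in the 234 newly formed nuclei, against 15.2% in precursors and 95.4% in mature nuclei. Of the 234 nuclei, 79 were under 25%, 70 lay from 25% to 75% and 85 were over 75%. By library the medians were 53.5% and 64.3% in METH, against 29.3% and 73.6% in saline. The means were 58.9% ± 7.6 in METH and 51.5% ± 31.4 in saline (SD, n = 2 each), and the saline libraries lay on both sides of the METH libraries (p = 1 by exact two-sided permutation, where the smallest p of this design is 0.333).

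**Figure D1:**
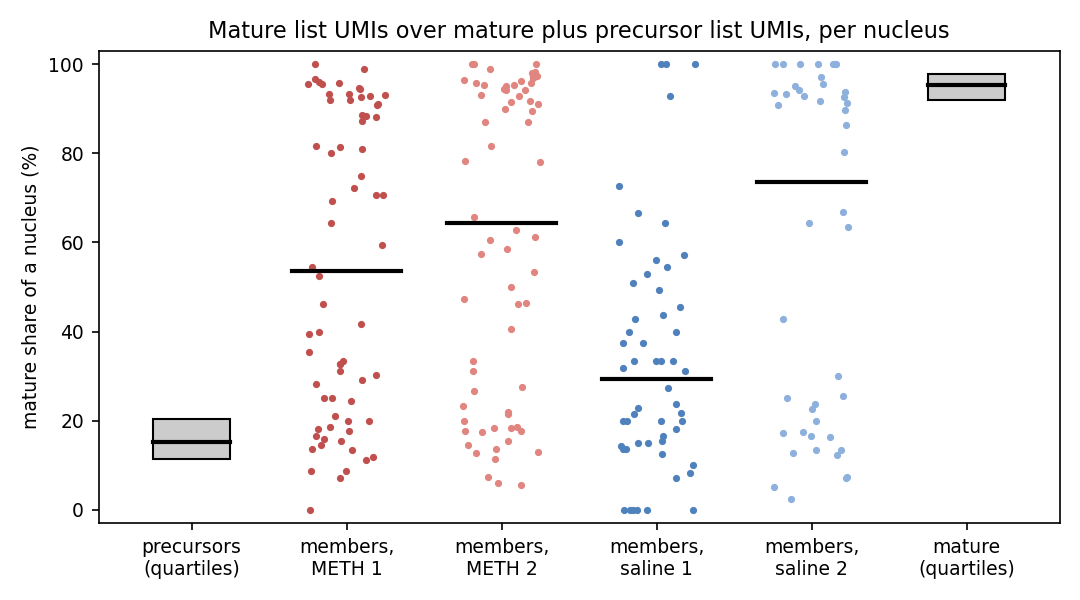
Mature share of each nucleus in percent, with 1 point per newly formed nucleus and a black bar at each library's median; grey boxes give the quartiles and median of precursors and mature nuclei over 4 libraries. Newly formed nuclei (members) span the range between the boxes, with 85 over 75%, of which saline library 1 holds 4.

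Sorted by Mog, Mobp and Mag, which the rule did not use, 123 nuclei had at most 2 UMIs of these 3 genes, 25 had 3 to 5 and 86 had 6 or more. The nuclei poor in mature markers carried a median of 20 Bcas1 and 3 Enpp6 UMIs, and a mature share of 20%. The nuclei rich in them carried a median of 5 Bcas1 and 1 Enpp6 UMIs, and a mature share of 93.2%. The precursor genes of this share include Tnr and Sox6, which in poor nuclei stood at 365% and 111% of their precursor levels. Of 14 precursor genes there, 9 were under 25% of the precursor level and 3 at 50% or more. A share near that of precursors thus does not mean that most precursor genes were kept. Of the 86 rich nuclei, 45 rested on 1 Enpp6 UMI. By doublet score, 19 of the 86 were among the barcodes taken as doublets, against 2 of the 123 poor nuclei. Over all nuclei kept, 9.81% were taken. The preset rate ran from 6.54% in saline library 2 to 13.9% in saline library 1. Saline library 1 held 45 of the 123 poor nuclei and 3 of the 86 rich ones. Microglial genes moved with this split as well: 29 chosen nuclei had 6 or more UMIs of the 9 microglial genes and held 642 of their 699 UMIs, and 23 of the 29 were rich in mature markers. The part of doublets in the rich nuclei was not tested.

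Myelin genes stood at unequal levels in the 123 poor nuclei, which were sorted to hold little Mog, Mobp and Mag. Of 16 other myelin genes at 50 CPM or more in mature nuclei, 9 stood at 50% or more of the mature level and 6 were under 25%. Among these 9, Mbp, the main cytoplasmic myelin protein, was at 4275 CPM (68.5% of the mature level). The tetraspanin Tspan2 was at 1119 CPM (121%), Fa2h and Ugt8, enzymes of myelin lipids, were at 473 CPM (96.1%) and 559 CPM (94.6%), and Myrf, the transcription factor of myelin genes, was at 95.4 CPM (98.0%). Among the 6, Opalin, a membrane protein of myelin, was at 13.0 CPM (1.76%), Ermn, a cytoskeletal protein of the sheath, at 8.7 CPM (1.89%), and Plekhh1 at 17.3 CPM (3.00%). Of the mature list, 22 of 25 genes were under 25% of the mature level, with a median of 11.5%. In the 86 rich nuclei that median was 64.4%.

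Precursor genes were unequal too. In the poor nuclei, Ptprz1, a receptor phosphatase, stood at 6.11% of its precursor level, Megf11 at 13.3% and Pcdh15 at 18.8%. Pdgfra measured 47.7 CPM in the poor nuclei, against 1303 CPM in precursors, though it chose the precursors. Sox6, a transcription factor that delays differentiation, was at 3109 CPM, or 111% of its precursor level. Tnr, an extracellular matrix glycoprotein, was at 5723 CPM, 365% of the precursor level, and the guidance protein Sema5a was at 3234 CPM, against 670 CPM in precursors. Of the 14 precursor genes at 50 CPM or more in precursors, 9 were under 25% of the precursor level in poor nuclei and 10 were under 25% in rich nuclei. On the scale from 0 to 1, the poor nuclei stood at 0.20 ± 0.03 for genes higher in mature nuclei and at 0.73 ± 0.12 for genes higher in precursors (SD, n = 4 libraries).

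The stage genes themselves had different orders along this axis. Saline library 1 held only 3 rich nuclei, so its values there are coarse. The middle group was small too, with 25 nuclei, 13 of them from METH library 1 and 2 from METH library 2. Fyn measured 4049 CPM in poor nuclei, 1963 CPM in those with 3 to 5 mature marker UMIs and 415 CPM in rich nuclei. Its level in rich nuclei was below the 547 CPM of precursors when pooled. Tcf7l2 measured 1548, 1442 and 570 CPM in the same order, against 97.1 CPM in precursors when pooled. Cemip2 had its highest level in the middle nuclei, at 73.7, 1042 and 627 CPM, and Rras2, a small GTPase, had its highest level in rich nuclei, at 382, 1068 and 1203 CPM. The level of Cemip2 was lower in poor than in rich nuclei in all 4 libraries, as was that of Rras2, and the levels of Fyn and Tcf7l2 were higher in all 4. Casr measured 65.0, 147 and 95.0 CPM, against 0.25 CPM in the 2323 mature nuclei when pooled, and its middle value rested on 11 UMIs. Of the 15 leading genes, 12 were higher in poor than in rich nuclei in all 4 libraries.

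**Figure D2:**
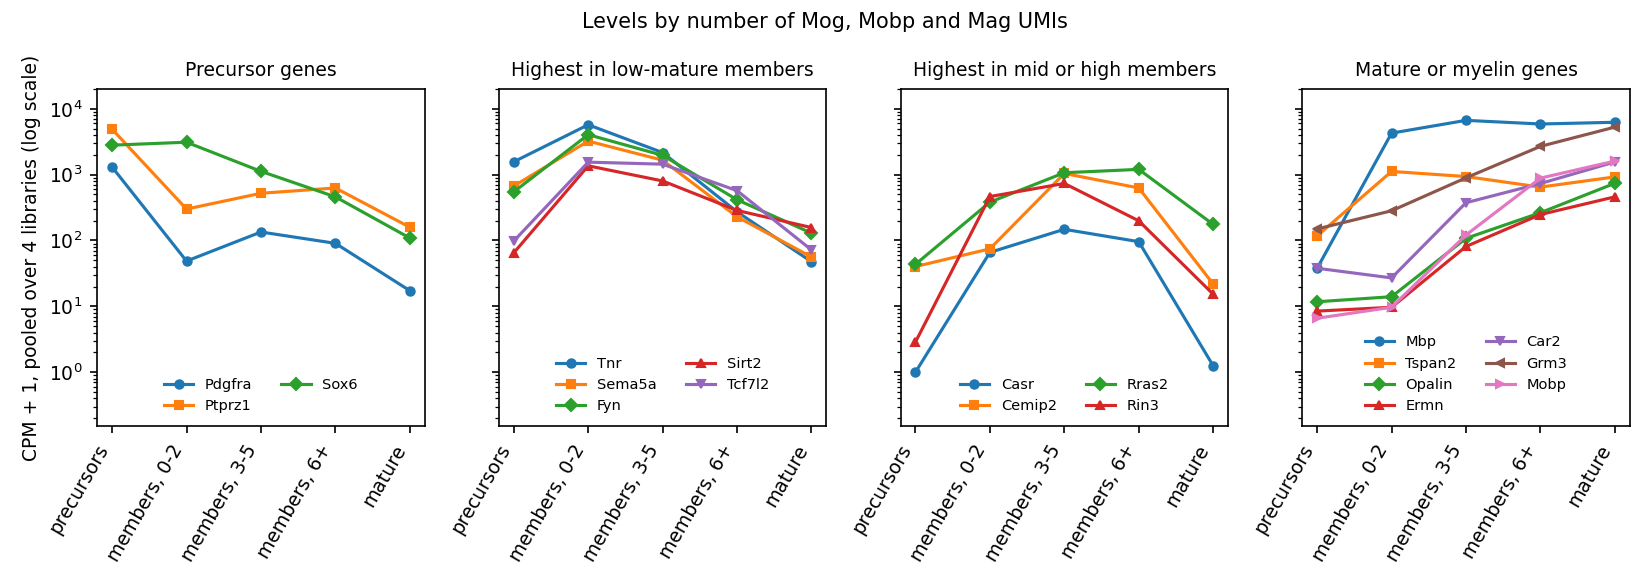
Levels of 19 genes as CPM + 1 on a log axis, pooled over 4 libraries, in precursors, newly formed nuclei with 0 to 2, 3 to 5 and 6 or more UMIs of Mog, Mobp and Mag, and mature nuclei. Mbp is at 4275 CPM in the nuclei with 0 to 2, where Opalin, Ermn and Mobp are at 13.0, 8.7 and 8.7 CPM, and Casr is at 0 in precursors and 0.25 CPM in mature nuclei; Mobp was used for the sorting.

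Of 12 measured genes of committed precursors, the step just before, 7 reached 20 CPM in a set. Of these, Sema5a, Tnr, Kif19, Bmp4 and Marcks were above both other sets in all 4 libraries, and Lgi3 lay between them. Gpr17, a receptor of committed precursors, averaged 8.4 CPM in newly formed nuclei (5 UMIs), against 9.9 CPM in precursors and 0.60 CPM in mature nuclei. Sox11 averaged 1.6 CPM (1 UMI), against 7.2 CPM in precursors and 0.64 CPM in mature nuclei, and Neu4 had 0 UMIs in all 3 sets. Bmp4, a signalling protein known from the same step, measured 87.1 and 88.2 CPM in METH, against 169 and 57.1 CPM in saline, with a mean of 43.1 CPM in precursors and 31.4 CPM in mature nuclei. The summed level of the cycling genes in newly formed nuclei was 102 and 88.2 CPM in METH, against 48.3 and 63.5 CPM in saline, with Ccnb1, Ube2c and Cdk1 at 0. In precursors it was 106 and 141 CPM in METH, against 92.6 and 88.2 CPM in saline, and in mature nuclei 18.6 and 22.6 CPM in METH, against 19.2 and 19.1 CPM in saline. Of 234 newly formed nuclei, 5 had 3 or more UMIs of the list, against 15 of 1005 precursors and 0 of 2323 mature nuclei.

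Among lineage transcription factors at 20 CPM or more, Tcf7l2, Sox10 and Zfp365 were above both other sets in all 4 libraries, Klf9, Nfia and Olig1 were below both, and Zfp536, Sox6, Zeb2 and St18 lay between. Sox10, which holds oligodendrocyte identity, averaged 397 CPM, against 284 CPM in precursors and 297 CPM in mature nuclei. St18, a zinc finger factor, averaged 379 CPM, against 1.5 and 819 CPM. Among receptors and channels, Grm3, Grm5, Grm7, Gria2, Cacna1d and Cacna2d1 lay between in all 4 libraries, and Itpr2, a calcium release channel, was above both at 383 CPM, against 212 and 84.6 CPM.

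METH and saline were compared first by the number of newly formed nuclei. They made up 0.696% (95% exact Clopper-Pearson interval 0.541 to 0.881) and 0.794% (0.617 to 1.01) of the nuclei kept in the METH libraries. The saline libraries had 0.310% (0.233 to 0.405) and 0.538% (0.392 to 0.722). Both METH shares were above both saline shares, with means of 0.745% ± 0.069 in METH and 0.424% ± 0.161 in saline (SD, n = 2 each; exact two-sided permutation p = 0.333, the smallest this design allows). The intervals cover counting error only. Of newly formed, precursor and mature nuclei together, the newly formed ones were 6.48% and 5.50% in METH, against 16.4% and 4.65% in saline. The saline libraries lay on both sides of the METH libraries, and the difference of the means was -4.51 percentage points (exact two-sided permutation p = 1). Without saline library 1 it was 1.35 percentage points, and without saline library 2 it was -10.4.

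The rule counts UMIs, and the libraries differed in depth, so the shares were also taken at a fixed depth. With every nucleus thinned to 1500 UMIs and a sum of 3 required, the shares of nuclei kept were 0.964% and 0.983% in METH, against 0.146% and 0.626% in saline, after 2722 and 2258 shallower nuclei were left out in METH and 6419 and 1945 in saline. Of the nuclei chosen at full depth, 60 of 68 and 62 of 68 in METH reached 1500 UMIs. In saline 13 of 54 and 41 of 44 did. Thinning thus left out most chosen nuclei of saline library 1, so its thinned shares cannot show whether depth explains the difference. Of the lineage the thinned shares were 10.4% and 7.36% in METH, against 8.84% and 5.97% in saline. The number of nuclei poor in mature markers differed less: they were 0.338% and 0.292% of nuclei kept in METH, against 0.259% and 0.245% in saline, and each METH interval overlapped each saline interval. Rich nuclei made up 32.4% and 60.3% of the newly formed nuclei in METH, against 5.56% in saline library 1 and 45.5% in saline library 2 (exact two-sided permutation p = 0.667). The split into poor and rich nuclei counts UMIs too and was not repeated at a fixed depth. Poor nuclei had a median of 1748 UMIs, against 2884 UMIs in rich nuclei.

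**Figure D3:**
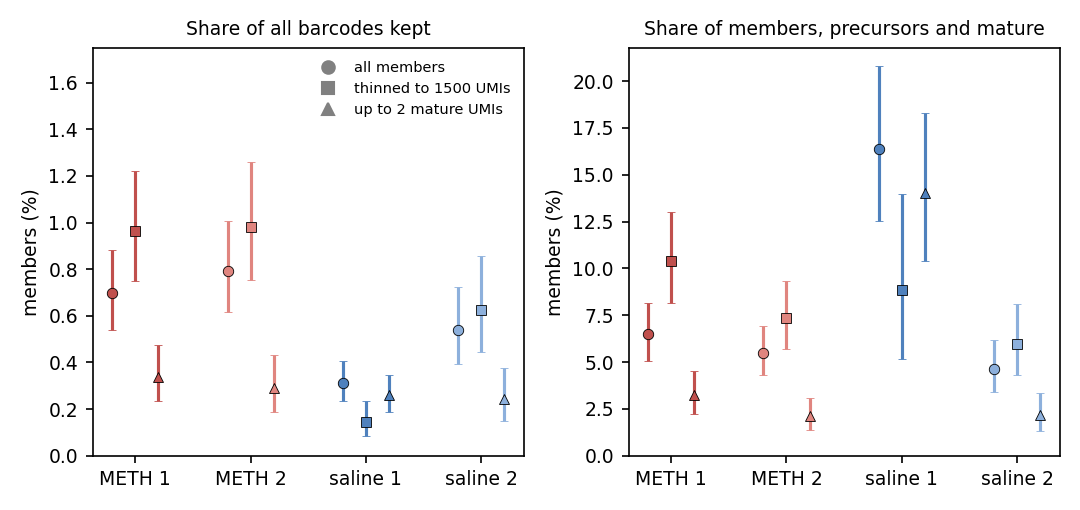
Percent of nuclei that were newly formed oligodendrocytes, by library, of all nuclei kept (left) and of precursors, newly formed and mature nuclei (right), with 95% exact intervals; circles give all newly formed nuclei, squares the thinned counts and triangles the nuclei with up to 2 UMIs of Mog, Mobp and Mag. The METH circles on the left, 0.696% and 0.794%, lie above the saline circles, and on the right saline library 1 is highest at 16.4%.

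For gene levels, UMIs were summed over the newly formed nuclei of each library and tested with edgeR's quasi-likelihood test. Of 4077 genes tested, 1 was called at an adjusted p under 0.05, or 0.0245%, and it was lower in METH. No gene was called higher. Of the 4077 genes, 671 had both METH levels above both saline levels and 677 had both below, so groups that do not overlap were common. At an unadjusted p under 0.05 there were 158 genes with edgeR and 25 with DESeq2, which called 0.

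The called gene was Reln, a secreted glycoprotein of Cajal-Retzius cells and some interneurons that guides neuronal layering. It had 1 and 1 UMIs in METH (4.8 and 4.4 CPM), against 19 and 22 UMIs in saline (229 and 140 CPM), and the groups did not overlap. By edgeR's quasi-likelihood test the change was -5.03 on the log2 scale (SE 0.64, adjusted p = 0.0324), and the ratio of the summed levels was 0.0271 (95% exact interval 0.00317 to 0.104, counting error only). The saline UMIs did not come from many nuclei: 18 of the 19 were in 1 nucleus of saline library 1 and 21 of the 22 in 1 nucleus of saline library 2. Outside these 2 nuclei saline had 2 Reln UMIs, as many as METH. Both of these nuclei were among the barcodes taken as doublets by score. The nucleus of library 1 held 12985 UMIs, among them 10 of Mog, 1 of Enpp6 and 101 of Nrxn3, a neuronal adhesion gene, and the nucleus of library 2 held 20397 UMIs, among them 10 of Mog, 1 of Enpp6, 72 of Nrxn3 and 90 of microglial genes. Reln did not reach the level needed for a test when at least 2 Enpp6 UMIs were asked for, when any neuronal UMI barred a nucleus, or when the highest doublet scores were left out, and 0 genes were called in each of these fits. Its adjusted p ranged from 1.05e-08 to 0.179 over the 13 alternatives that tested it, and it was 0.161 without saline library 1.

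**Figure D4:**
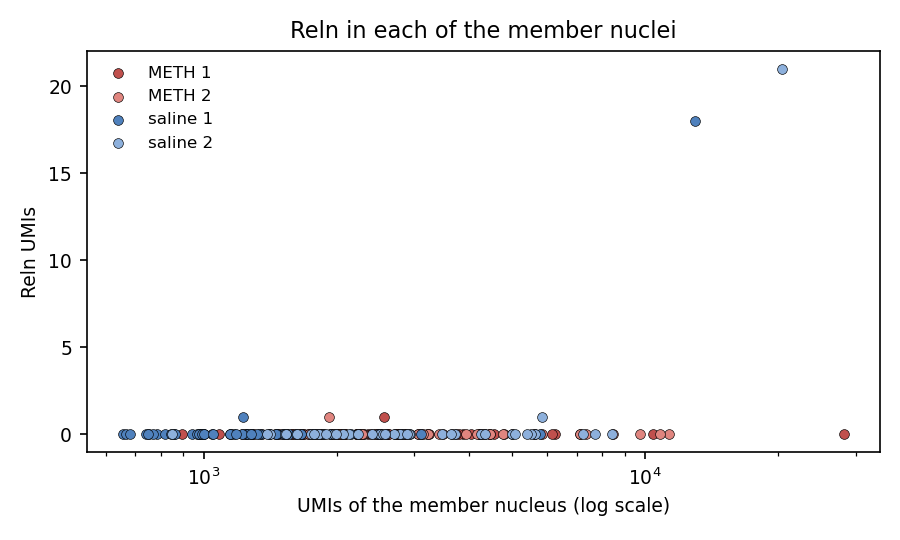
Reln UMIs in each of the 234 newly formed nuclei against the nucleus's total UMIs on a log axis, coloured by library. The nuclei with 18 and 21 Reln UMIs belong to saline libraries 1 and 2 and have the most UMIs of the newly formed nuclei there; 228 nuclei have 0.

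Other genes low in METH with a small p, singled out after their values were seen, were concentrated in 1 nucleus to different degrees. The nucleus that held Reln in saline library 1 had 13 of the 13 Foxp2 UMIs there, while the 14 Foxp2 UMIs of saline library 2 lay in 4 nuclei, with 6 in the highest. That nucleus of library 1 also had 7 of the 12 Grm8 UMIs, and 16 of the 19 Grm8 UMIs of library 2 were in a nucleus other than the one with Reln. Trhde had 5 UMIs in 4 nuclei in saline library 1, and in library 2 the nucleus that held Reln had 22 of 28. Scn2a was spread more widely, with 27 UMIs over 13 nuclei in library 1 and 46 over 18 nuclei in library 2. In excitatory neurons Foxp2, Grm8, Trhde and Scn2a averaged 236, 1337, 373 and 644 CPM, against 65.1, 76.7, 67.7 and 225 CPM in newly formed nuclei. The excitatory list summed to 82.3 and 70.5 CPM in newly formed nuclei of METH, against 241 and 63.5 CPM in saline. Of its 4 genes in the files, 2 (Slc17a7 and Camk2a) were capped by the rule for the nuclei. That sum was therefore limited in advance and cannot measure neuronal transcripts freely. The part of neuronal transcripts in these genes was not tested. Over all libraries, 16 newly formed nuclei with more than 6000 UMIs held 25.2% of the summed UMIs. With each nucleus capped at 1500 UMIs, 0 of 1956 genes were called.

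The 3 genes with the smallest p among those higher in METH did not pass the test. Ube4a, a ubiquitin ligase, measured 140 and 150 CPM in METH, against 48.3 and 50.8 CPM in saline (log2 fold change 1.55, SE 0.40, adjusted p = 0.999 with edgeR). Its UMIs were spread over 21 and 26 nuclei in METH, against 4 and 8 nuclei in saline. Plekhg3, an exchange factor of small GTPases, measured 208 and 313 CPM in METH, against 121 and 102 CPM in saline (1.28, SE 0.36). Cfl2, an actin-severing protein, measured 87.1 and 119 CPM in METH, against 36.2 and 25.4 CPM in saline (1.82, SE 0.52). For all 3 the groups did not overlap, as for 671 of all 4077 genes in this direction.

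Myelin and mature genes leaned towards METH, with no gene called. Of 16 myelin genes tested, 16 had a positive fold change, with a median log2 of 0.32, against -0.01 over all 4077 genes, of which 1994 were positive. Of 21 mature genes, 19 were positive, with a median of 0.75. Within the nuclei poor in mature markers, a subset formed after the data were seen, fewer genes reached the level tested. There, 3 of 7 myelin genes were positive, with a median of -0.03, and 5 of 9 mature genes, with a median of 0.41. Of all 1241 genes tested in that subset, 599 were positive, with a median of -0.02. The smallest p belonged to Plekhh1 and Ermn among myelin genes, and to Sgk1, a glucocorticoid-induced kinase, and Ptgds among mature genes. Plekhh1 measured 286 and 295 CPM in METH, against 72.4 and 165 CPM in saline, and Ermn measured 194 and 185 CPM in METH, against 12.1 and 102 CPM in saline. Sgk1 measured 208 and 207 CPM in METH, against 84.5 and 102 CPM in saline, and Ptgds measured 107 and 154 CPM in METH, against 36.2 and 63.5 CPM in saline. Rich nuclei were 32.4% and 60.3% of the newly formed nuclei in METH, against 5.56% and 45.5% in saline. The part of the mix of rich and poor nuclei in this lean was not tested.

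**Figure D5:**
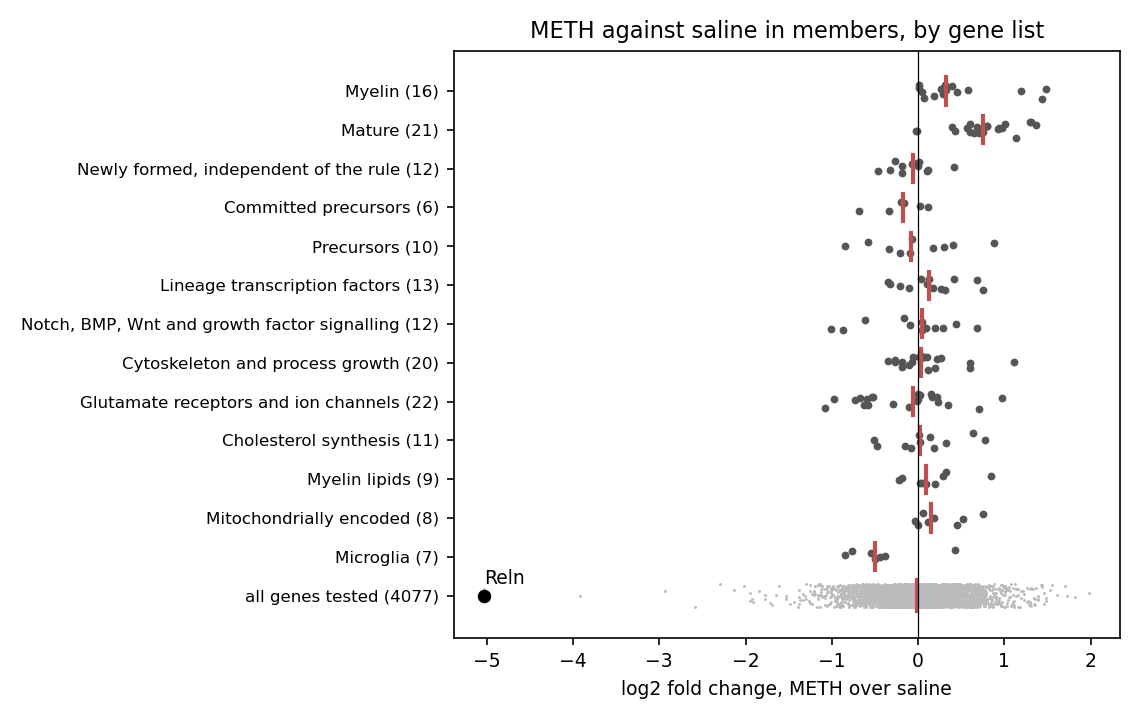
Log2 fold change of METH over saline in newly formed nuclei for the tested genes of 13 lists, with the number tested in brackets, and for all 4077 genes; red bars are medians. The myelin and mature lists have medians of 0.32 and 0.75, the microglial list -0.50, and Reln stands alone at -5.03.

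No other list held a called gene. Outside the astrocyte and microglial lists, medians ran from -0.18 for 6 genes of committed precursors to 0.27 for 5 glucocorticoid response genes. They were -0.06 for 12 newly formed genes outside the rule, -0.08 for 10 precursor genes, 0.13 for 13 lineage transcription factors, 0.04 for 12 signalling genes and 0.04 for 20 cytoskeletal genes. They were -0.06 for 22 receptors and channels, 0.02 for 11 cholesterol genes, 0.10 for 9 myelin lipid genes, 0.15 for 8 mitochondrially encoded genes and 0.01 for 4 stress genes. Of the immediate early, cycling, vascular and excitatory lists 0 genes reached the level tested.

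The members with the smallest p on these lists were Ust and Casr, Kif19 and Tnr, Megf11 and Dscam, St18 and Zfp536, Erbb4 and Fgfr1, Tns1 and Gsn, Scn2a and Grm7, Fdft1 and Hmgcs1, Elovl7 and Ugt8, Sgk1 and Errfi1, Mt-co2 and Mt-atp6, and Calr and Hspa8. Adarb2 was the 1 inhibitory gene and Oprm1 the 1 opioid or monoamine receptor tested. Scn2a, a sodium channel, measured 121 and 163 CPM in METH, against 326 and 292 CPM in saline (log2 fold change -1.08, SE 0.31). Erbb4, a neuregulin receptor, measured 1109 and 912 CPM in METH, against 531 and 723 CPM in saline (0.69, SE 0.30). Each of these genes had an edgeR adjusted p of 0.999. Among 4 astrocyte genes the median was 0.25, with Slc1a3 and Slc4a4 first by p, and among 7 microglial genes it was -0.50, with Dock8 and Inpp5d first.

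Microglial genes moved by library. Their summed level in newly formed nuclei was 944 and 776 CPM in METH, against 362 and 1891 CPM in saline, and all 9 genes were detected. In mature nuclei the sum was 668 and 633 CPM in METH, against 502 and 480 CPM in saline. Cst3, which microglia and astrocytes express strongly, measured 692 and 657 CPM in METH, against 302 and 933 CPM in saline (log2 fold change 0.09, SE 0.41), and the groups overlapped. The part of microglial transcripts in the gene comparison was not tested.

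Smarcc1, Fkbp5 and Fos were given whatever their result. Smarcc1, a chromatin remodelling subunit, measured 150 and 163 CPM in METH, against 157 and 171 CPM in saline (log2 fold change -0.06, SE 0.31). Fkbp5, a glucocorticoid-induced chaperone, had 5 and 11 UMIs in METH, against 5 and 8 UMIs in saline, and Fos, an activity-induced factor, had 1 and 0 UMIs in METH, against 0 and 0 UMIs in saline. Both were below the level tested.

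Within the nuclei poor in mature markers, a subset formed after the data were seen, 1 of 1241 genes was called. Grm7, a metabotropic glutamate receptor, averaged 1130 CPM in precursors and 2237 CPM in excitatory neurons. In the poor nuclei Grm7 measured 172 and 129 CPM in METH, against 706 and 623 CPM in saline (log2 fold change -2.13, SE 0.37, edgeR quasi-likelihood adjusted p = 0.0363). Over all newly formed nuclei it measured 281 and 273 CPM in METH, against 700 and 425 CPM in saline (-0.97, SE 0.31, adjusted p = 0.999). In precursors Grm7 measured 1228 and 1022 CPM in METH, against 1142 and 1128 CPM in saline. In mature nuclei it measured 214 and 225 CPM in METH, against 445 and 365 CPM in saline. Both values in METH were below both in saline among mature nuclei, while among precursors the groups overlapped. How many genes lie that way among mature nuclei was not counted. In newly formed nuclei 677 of 4077 genes did.

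Whether METH and saline differed more in newly formed nuclei than in the neighbouring stages was tested with a set-by-treatment term and the library as a block. Against mature nuclei, 0 of 5545 genes were called (0.0%) and 282 had an unadjusted p under 0.05. Against precursors, 0 of 5606 genes were called (0.0%) and 188 had an unadjusted p under 0.05. Only edgeR was run on these terms. Reln had the smallest p against mature nuclei, with a difference in log2 fold change of -5.06 (SE 0.92, adjusted p = 0.356), and Trhde the smallest against precursors (-2.98, SE 0.65, adjusted p = 1.00).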

How the data were processed

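Single-nucleus libraries of orbitofrontal cortex were compared, 2 from METH and 2 from saline rats. The deposited files give UMI counts per gene and barcode, which the authors made with Cell Ranger 7.0.0, per the submitters' processing notes. The counts hold no normalization. The notes name hg38, while the gene identifiers are those of rat Ensembl; the sources used here do not give the rat build.

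Nuclei were read with SciPy 1.17.1, pandas 2.3.3 and NumPy 2.4.6 in Python 3.11.15. Doublet scores came from Scrublet in Scanpy 1.11.5, per library. The highest scores, 0.8% per 1000 barcodes, were taken as doublets and left out only in an alternative; they included 22 of the 234 newly formed nuclei.

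The excitatory set had at least 3 UMIs of Slc17a7 and at most 1 of Gad1 and Gad2. METH and saline were compared on UMIs summed per library with edgeR 4.0.16 (quasi-likelihood F test, TMM, robust, filterByExpr, two-sided) in R 4.3.3. P-values were adjusted by Benjamini-Hochberg over all genes tested and called under 0.05. The SE is the size of the log2 fold change over the square root of F. The fit was tested on simulated data. Shares were compared by exact permutation over libraries.

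Named genes were those called, up to 10 per direction, or else the 3 with the smallest p, and on each list the 2 with the smallest p. The rule for the nuclei, its members and the lists were chosen with earlier results of these data known. Genes of the lists that matched no symbol are not analysed here. Alternatives were RLE scaling, DESeq2 1.42.0, no filter, a fit that was not robust, other rules for the nuclei, thinning, equal numbers and leaving out each library. Same-numbered METH and saline libraries had deviations that correlated at 0.035 over 4077 genes, and nothing in the labels pairs them.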

Additional observations from a re-analysis of the deposited data

How the results depend on the processing

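The count of genes called, 1 in the fit as reported, was 8 without the filter on low counts, and 0 in the fit that was not robust, with DESeq2, with at least 2 Enpp6 UMIs, with a rule sum of at least 10 UMIs, with no neuronal UMI, with at least 1000 genes, without the highest doublet scores and with equal numbers of nuclei. It was also 0 with nuclei capped at 1500 UMIs, and 7 in the poor nuclei without saline replicate 1, both chosen after seeing the data. Leaving out 1 library gave 0 to 3 calls, with 0 without saline replicate 1; a group with 1 library is then assumed to vary like the other. The replicate block gave 0 calls, and the numbers do not pair the libraries. The difference in METH effect gave 0 to 38 calls against mature nuclei and 0 to 22 against precursors when 1 library was left out, both highest without saline replicate 2 (against mature nuclei also 14 without saline replicate 1 and 1 without METH replicate 2, and against precursors 1 without METH replicate 1), and 2 each without the filter. The difference in the share of nuclei kept, 0.320 percentage points, was 0.495 with a sum of at least 4, 0.171 with at least 10, 0.557 with at least 1000 genes, 0.588 thinned and 0.063 in poor nuclei. It kept its direction in all of these. Of the 54 chosen nuclei of saline replicate 1, however, only 13 reached 1500 UMIs and 10 had at least 1000 genes. The difference in the share of the lineage was -4.51, but 1.48 when thinned, 1.37 with at least 1000 genes and 1.35 without saline replicate 1; it was -10.4 without saline replicate 2. The mean of the libraries' median mature shares was 55.2%, 28.6% with a sum of at least 10 and 19.5% in poor nuclei. The cause of these changes was not tested.

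Reln lost its call in the fit that was not robust (adjusted p = 0.0522), with the replicate block (0.179), without saline replicate 1 (0.161), with at least 1000 genes (0.126), with equal numbers (0.095) and with DESeq2 (0.085). Cst3 and Smarcc1 had no call in any setting and changed sign in some. With 1 library left out, Cst3 ranged from -0.42 without saline replicate 1 to 1.13 without saline replicate 2, and was -0.030 with at least 1000 genes and -0.012 with equal numbers. With 1 library left out, Smarcc1 was lowest at -0.11 (METH replicate 2 left out) and highest at 0.019 (METH replicate 1 left out). Over all settings its lowest value was -0.19, without the highest doublet scores. It was 0.026 without the filter, 0.036 with at least 2 Enpp6 UMIs, 0.051 with a sum of at least 4, 0.012 with no neuronal UMI, 0.24 in poor nuclei, 0.30 capped and 0.25 with equal numbers.

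With 2 libraries per group and 44 to 68 nuclei in each, the number of nuclei limits the precision, and low genes such as Fos could not be tested.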
